A study of Mus musculus with 30 samples.

Results

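Lysosomal enzymes, lysosomal membrane proteins and proton pump subunits were followed across neutrophils, macrophages and microglia sorted from injured mouse brain in the presence or absence of TREM1, a surface receptor of myeloid cells known for amplifying inflammatory signals. The genes were chosen by name and function, with earlier results of these data known. Of 45 named genes, 42 had a row under their symbol in the platform annotation, out of 19479 genes so annotated on the array. Cd68, Ctsd and Glb1 were not matched to a row and were not analysed here. Each of the 42 genes was read by 1 transcript cluster, the array's unit of 1 gene or transcript. By role they were 9 proteases, 9 glycosidases and other enzymes of glycan breakdown, 9 lipid enzymes, activators and cholesterol carriers, 4 membrane glycoproteins, 6 subunits of the proton pump, and 5 other genes, namely progranulin, 2 ceroid lipofuscinosis genes, a calcium channel and a transcription factor.

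All mice were male C57BL/6 of 8 to 10 weeks, of genotype TREM1+/+ (WT) or TREM1-/- (KO), and all were given an experimental stroke, in which the middle cerebral artery was blocked for 45 min and cells were taken at 48 h of reperfusion. No sham group or uninjured hemisphere was analysed here, so every group came from ischemic brain. Cells of the ischemic hemisphere were sorted on CD45, CD11b and Ly6G, with Ly6G marking neutrophils and lower CD45 marking microglia, and the microglia gate was also labelled Ly6G+. RNA was read on microarrays, 1 per sample. The 30 arrays were 4 WT and 5 KO neutrophil, 3 WT and 6 KO macrophage, and 6 WT and 6 KO microglia arrays. The labels call them biological replicates and do not say whether each came from 1 animal or from pooled animals, so the tests measure the spread between these samples.

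Lysosomes are acidic organelles in which hydrolases break down proteins, glycans and lipids delivered by endocytosis, phagocytosis and autophagy. A proton pump in their membrane keeps the lumen acid, and heavily glycosylated membrane proteins line and protect that membrane. Many lysosomal genes are switched on together by TFEB and related factors, which bind a short element around the letters CACGTG near gene starts. Microglia and macrophages are professional phagocytes rich in lysosomes, and mature neutrophils instead store many of their hydrolases in granules made earlier in the bone marrow.

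The promoters of these genes were read for that element, since it is the sequence feature the group is best known for sharing. RefSeq's promoter table held 40 transcript starts for 34 of the 42 genes, and the 250 bases before each start were searched on both strands. The motif CACGTG was found before at least 1 start in 10 of the 34 genes (29.4%), against 6.86% of 27025 genes. The longer form GTCACGTG, which contains it, was found in 7 of 34 (20.6%), against 2.11% of genes. In Ctsa, Lgmn and Cln3 the motif was absent before the outermost start and lay before an internal one, which was 901, 636 and 2581 bases inside the gene as RefSeq bounds it. The stretches below span all copies of the motif in each of those 7 genes with up to 20 bases on either side. They come from RefSeq on GRCm38.p6, are written 5′ to 3′ along the gene, and carry CACGTG in capitals. Lamp1 lies at chr8:13159080-13159160 and Mcoln1 at chr8:3500428-3500499, both on the plus strand. Ctsa lies at chr2:164833741-164833772 and Naglu at chr11:101070001-101070046, also on the plus strand. Lgmn at chr12:102439116-102439161, Gla at chrX:134601174-134601252 and Cln3 at chr7:126583332-126583405 are on the minus strand.
Lamp1: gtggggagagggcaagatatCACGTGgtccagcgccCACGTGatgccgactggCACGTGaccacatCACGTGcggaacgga
Mcoln1: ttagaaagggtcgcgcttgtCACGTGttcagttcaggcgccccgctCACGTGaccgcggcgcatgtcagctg
Ctsa: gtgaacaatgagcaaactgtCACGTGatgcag
Lgmn: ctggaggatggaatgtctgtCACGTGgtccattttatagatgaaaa
Naglu: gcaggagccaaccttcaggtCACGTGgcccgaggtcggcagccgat
Gla: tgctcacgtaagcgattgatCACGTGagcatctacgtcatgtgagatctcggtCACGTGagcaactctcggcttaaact
Cln3: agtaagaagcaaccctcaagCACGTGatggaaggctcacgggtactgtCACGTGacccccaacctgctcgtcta
Lamp1 carried 4 copies within this stretch, and the copy nearest its start began 15 bases upstream of it. Ctsl, Gaa and Atp6v1a were the other 3 genes with CACGTG, and the single starts listed for Ctsl and Atp6v1a also lay inside the gene, by 252 and 443 bases.

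Values are log2 of the deposited intensities, and a difference of 1 is a doubling. A gene passed a comparison at a limma adjusted p under 0.05 over all 22103 clusters. The median intensity of an array was 83.7 to 120 over the 30 arrays, and precision is set by the small number of arrays. By mean log2 level, sorted cells were highest in the markers of their labels. The 15 neutrophil markers averaged 12.73 to 15.98 on neutrophil arrays against at most 9.44 elsewhere. The 14 macrophage and monocyte markers averaged 14.92 to 15.39 on macrophage arrays against at most 13.42 elsewhere. The 13 microglia markers averaged 13.96 to 15.08 on microglia arrays against at most 11.18 elsewhere. The log2 of the summed microglia markers was 16.38 to 17.41 on WT neutrophil arrays and 15.96 to 17.07 on KO neutrophil arrays. It was 18.72 to 19.57 on microglia arrays. Neutrophil markers averaged up to 9.27 on KO microglia arrays, against up to 7.09 on WT microglia arrays. Carry-over of other cells into a gate was not tested. Trem1 itself was lower by 1.22 (SE 0.41) in KO neutrophils (limma adjusted p = 0.0361), and by 0.49 (SE 0.44) in KO macrophages and 1.25 (SE 0.36) in KO microglia, where it did not pass (adjusted p = 0.998 and 1). Mean Trem1 was still 15.98 in KO neutrophils against 17.20 in WT, and 13.47 in KO macrophages against 13.96 in WT. In microglia it was 8.35 in KO and 9.60 in WT. These levels alone do not show a lost transcript. A probe outside the deleted part would still read the transcript, and where these probes lie was not analysed here.

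In neutrophils, the lysosomal genes were higher without TREM1. Of the 42 genes, 25 rose in KO neutrophils, none fell, and 17 did not pass, where 10.7% of all clusters were called higher and 9.14% lower (19.9% in either direction). Their median difference was 0.81, against -0.13 over all clusters, and 39 of 42 were above 0. In 14 genes every KO array exceeded every WT array, which held for 5.52% of all clusters, and in 1 gene the reverse held, as for 5.86% (11.4% in either direction). The genes that rose were 9 of 9 proteases, 7 of 9 lipid handling genes, 3 of 9 glycan enzymes, 2 of 6 pump subunits, 1 of 4 membrane glycoproteins and 3 of the 5 others.

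**Figure D1:**
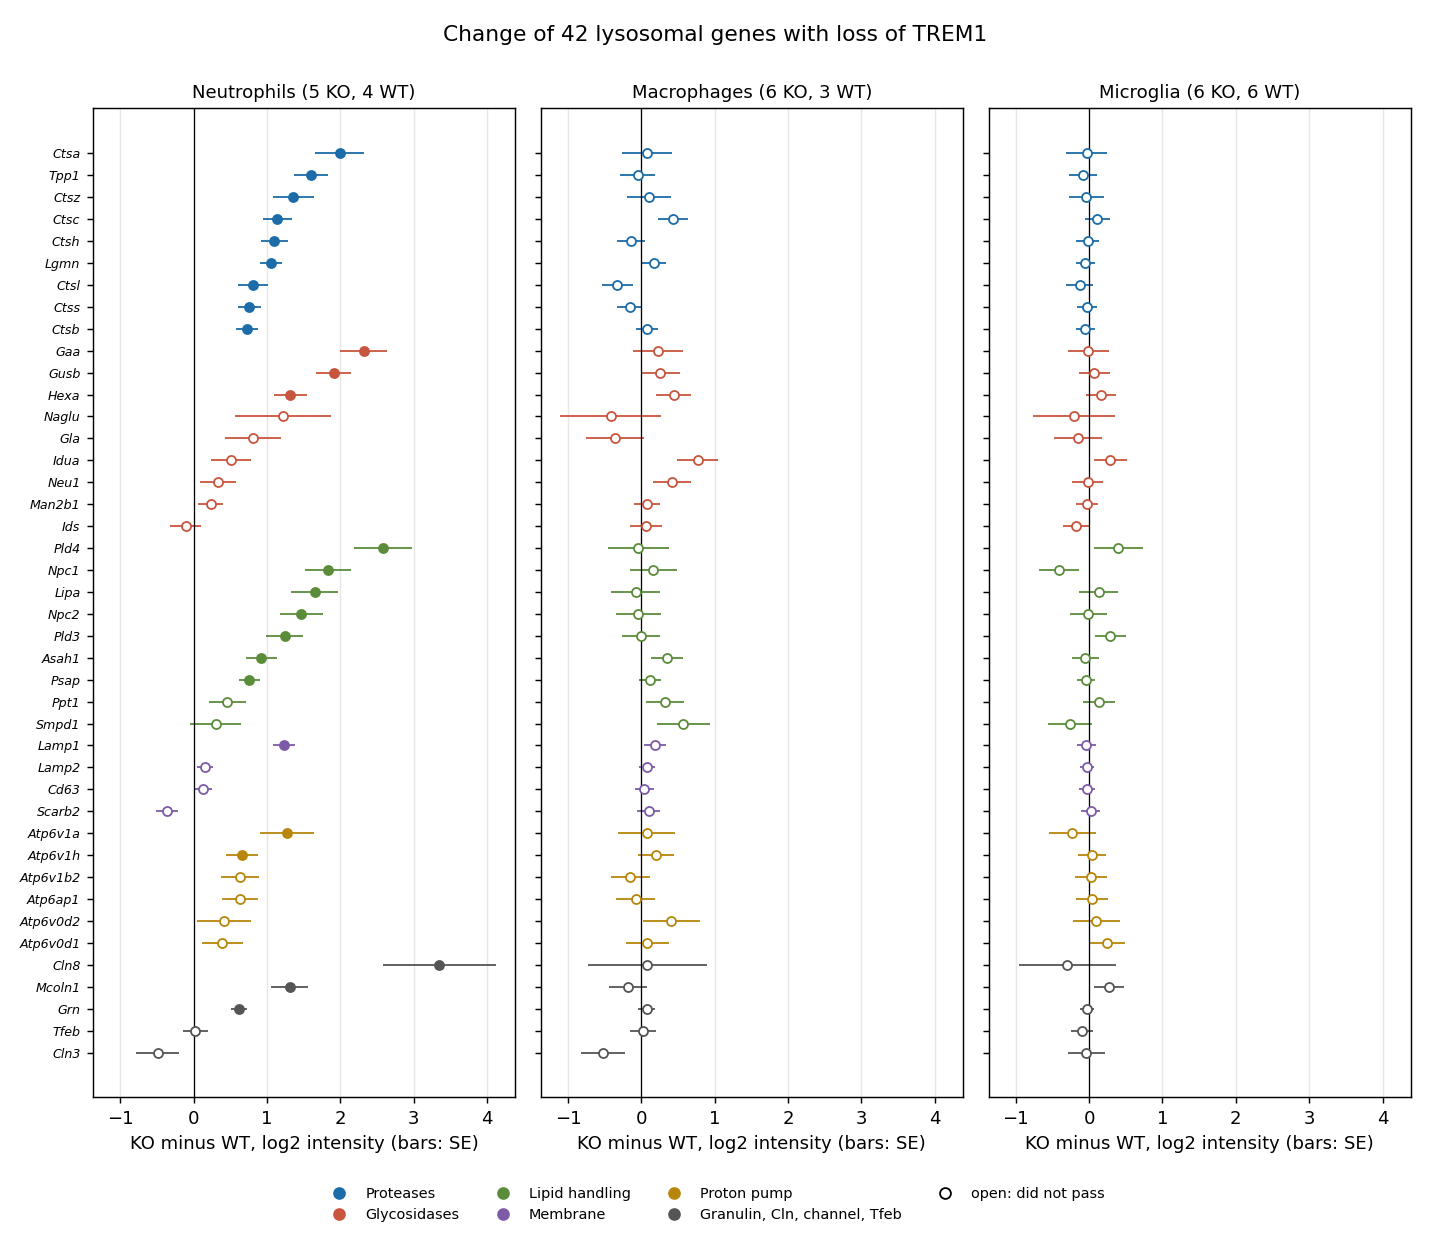
Difference between KO and WT (log2 intensity, x axis) for 42 lysosomal genes grouped by role (y axis) in neutrophils, macrophages and microglia. Points are limma estimates, bars their SE, and filled points passed at an adjusted p under 0.05, as 25 genes did in neutrophils and none in macrophages or microglia.

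All 9 proteases rose, by 0.73 to 1.99. Ctsa, the protective protein that also stabilises other lysosomal enzymes, read 13.45, 13.01, 11.50 and 10.99 on the WT neutrophil arrays and 14.55, 14.19, 14.45, 14.41 and 13.55 on the KO arrays. Every KO array lay above every WT array, and WT neutrophils 3 and 4 lay far below the other two. The difference was 1.99 (SE 0.33), a 3.98-fold higher level (limma adjusted p = 9.76e-05).

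Ctsc, which activates granule serine proteases of neutrophils, read 11.21, 11.39, 11.80 and 11.90 in WT and 13, 12.69, 13.05, 12.70 and 12.14 in KO neutrophils. Here too the groups did not overlap, and WT neutrophils 3 and 4 were the highest of their group. The difference was 1.14 (SE 0.20). Lgmn, an asparaginyl endopeptidase that processes cathepsins, read 18.01, 17.33, 17.08 and 17.05 in WT and 18.55, 18.38, 18.56, 18.44 and 18.21 in KO, a difference of 1.06 (SE 0.15). Its groups were separate by a narrow margin, set by WT neutrophil 1.

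The other members of this role followed. Tpp1, a tripeptidyl peptidase, rose by 1.60 (SE 0.23), Ctsz, a carboxypeptidase, by 1.36 (SE 0.28) and the aminopeptidase Ctsh by 1.10 (SE 0.18). The broad cysteine proteases Ctsl, Ctss and Ctsb rose least, by 0.81, 0.76 and 0.73, and in these 3 genes and Ctsz the lowest KO array lay below the highest WT array. Cathepsin S is the protease that trims the class II invariant chain in antigen-presenting cells.

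Among the 9 glycan enzymes, 3 rose. Gaa, the acid glucosidase that digests glycogen, read 12.32, 10.78, 11 and 10.23 in WT neutrophils and 13.51, 13.41, 13.70, 13.44 and 12.94 in KO neutrophils. Every KO array exceeded every WT array, and the difference was 2.32 (SE 0.32), a 4.98-fold higher level (limma adjusted p = 1.37e-05). Gusb, the beta-glucuronidase, read 14.45, 12.90, 13 and 12.99 in WT and 15.58, 15.33, 15.47, 15.17 and 14.67 in KO. WT neutrophil 1 stood apart from its group, and still below all KO arrays.

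Gusb rose by 1.91 (SE 0.24), and Hexa, the alpha subunit of beta-hexosaminidase, by 1.32 (SE 0.23). Naglu, an enzyme of heparan sulfate breakdown, read 11.92, 10.70, 8.76 and 9.97 in WT and 12.43, 12.16, 12.63, 12.21 and 8.33 in KO neutrophils. Its KO arrays were high but for KO neutrophil 5, which was the lowest of all 9, and the difference of 1.22 (SE 0.65) did not pass (limma adjusted p = 0.184). Without KO neutrophil 5 the Naglu difference was 2.02 (adjusted p = 0.00465) and that of Gla, the alpha-galactosidase, 1.08 (adjusted p = 0.035) in place of 0.81 (adjusted p = 0.126). Idua, Neu1, Man2b1 and Ids did not pass, with differences of 0.51, 0.33, 0.23 and -0.11, and without WT neutrophil 1 the Idua difference was 0.85 (adjusted p = 0.013).

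Of the 9 lipid handling genes, 7 rose. Pld4, an exonuclease of single-stranded nucleic acids in endolysosomes with a phospholipase D fold, read 11.12, 10.34, 10.74 and 8.78 in WT neutrophils and 13.36, 11.61, 13.51, 13.10 and 12.56 in KO neutrophils. The groups did not overlap, and the difference was 2.58 (SE 0.40), a 5.99-fold higher level (limma adjusted p = 4.7e-05). Pld3, its relative, rose by 1.24 (SE 0.25).

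The cholesterol exporters rose with the lipase that feeds them. Npc1, the membrane protein that moves cholesterol out of lysosomes, read 8.60, 8.60, 7.56 and 7.61 in WT and 10.57, 9.47, 10.37, 10.24 and 8.94 in KO neutrophils, a difference of 1.83 (SE 0.31). Npc2, its soluble partner, read 12.44, 11.90, 11.57 and 10.53 in WT and 13.37, 13.22, 13.58, 13.07 and 12.12 in KO, a difference of 1.47 (SE 0.29). Lipa, the acid lipase that frees cholesterol from its esters, read 12.93, 12.20, 11.22 and 11.70 in WT and 14.14, 13.54, 14.05, 13.80 and 12.81 in KO, a difference of 1.65 (SE 0.32). Npc1 separated the groups, while in Npc2 and Lipa KO neutrophil 5 fell below WT neutrophil 1.

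The sphingolipid enzymes split. Asah1, the acid ceramidase, rose by 0.92 (SE 0.21) and Psap, the precursor of the saposin activators, by 0.76 (SE 0.14), and the groups did not overlap in either. Smpd1, the acid sphingomyelinase, differed by 0.30 (SE 0.35) and Ppt1, which removes palmitate from proteins, by 0.46 (SE 0.25), and neither passed. Without WT neutrophil 1 the Ppt1 difference was 0.71 (limma adjusted p = 0.0377).

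Of the 4 membrane glycoproteins only Lamp1 rose. Lamp1, with Lamp2 one of the main glycoproteins of the lysosomal membrane, read 15.36, 14.98, 14.88 and 14.54 in WT neutrophils and 16.47, 15.81, 16.27, 16.25 and 16.08 in KO neutrophils. The groups did not overlap, and the difference was 1.23 (SE 0.15), a 2.35-fold higher level, with the smallest adjusted p of the 42 genes (2.4e-06, limma). Lamp2 read 17.30, 17.41, 17.38 and 17.16 in WT and 17.59, 17.40, 17.40, 17.46 and 17.49 in KO, which overlapped, a difference of 0.15 (SE 0.11).

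Cd63, a tetraspanin of late endosomes and of neutrophil primary granules, differed by 0.13 (SE 0.12). Scarb2, the receptor that carries glucocerebrosidase to lysosomes, went the other way, with 14.41, 14.44, 14.32 and 14.67 in WT and 13.94, 14.17, 14.06, 14.19 and 14.16 in KO neutrophils. All 5 KO arrays lay below all 4 WT arrays, the single gene of the 42 with that order, and the difference of -0.36 (SE 0.15) did not pass (limma adjusted p = 0.0879). After quantile normalization over all arrays it was -0.45 and passed (adjusted p = 0.0428), and within cell types it was -0.46 (adjusted p = 0.0389).

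Of the 6 proton pump subunits, Atp6v1a, the catalytic subunit, rose by 1.27 (SE 0.37, limma adjusted p = 0.0163) and Atp6v1h, a regulatory subunit, by 0.66 (SE 0.22, adjusted p = 0.0372). Both calls were near the threshold, and both were lost under either quantile normalization (adjusted p = 0.0672 and 0.186 over all arrays), in the fit on neutrophil arrays alone (0.103 and 0.162) and with the level of broadly expressed clusters as a covariate (0.528 and 0.686). Atp6v1a read 9.60, 10.35, 10.00 and 10.94 in WT and 12.04, 11.35, 11.91, 12.04 and 10.10 in KO neutrophils, where KO neutrophil 5 lay within the WT range. Its call was lost without KO neutrophil 1 (adjusted p = 0.0524), and that of Atp6v1h without any of 6 single arrays, with adjusted p from 0.0631 to 0.19.

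Atp6v1b2 and Atp6ap1 each differed by 0.63 (SE 0.26 and 0.25), Atp6v0d2 by 0.41 (SE 0.37) and Atp6v0d1 by 0.39 (SE 0.28), and none of them passed. Without KO neutrophil 5, Atp6v1b2 (0.82, limma adjusted p = 0.0171) and Atp6ap1 (0.74, adjusted p = 0.0381) passed, and without WT neutrophil 2 Atp6v1b2 did (0.89, adjusted p = 0.0161). The d subunits join the membrane part of the pump to its stalk. Atp6v0d1 is the widely expressed form and Atp6v0d2 the form best known from osteoclasts and macrophages.

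Cln8, an endoplasmic reticulum protein that sends newly made enzymes toward lysosomes, had the widest difference and the widest spread. It read 11.11, 9.15, 6.82 and 4.75 in WT neutrophils and 12.16, 11.15, 12.02, 12.17 and 9.02 in KO neutrophils, so the 4 WT arrays spanned more than 6 log2 units and KO neutrophil 5 fell below WT neutrophils 1 and 2. The difference was 3.35 (SE 0.77), a 10.2-fold higher level (limma adjusted p = 0.00285). With WT neutrophils 3 and 4 both left out it was 1.17 and did not pass (adjusted p = 0.33).

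Mcoln1, the calcium channel of the lysosomal membrane, rose by 1.31 (SE 0.25) and Grn, the progranulin gene, by 0.62 (SE 0.11). Grn read 17.81, 17.59, 17.52 and 17.50 in WT and 18.38, 18.13, 18.30, 18.25 and 18.06 in KO neutrophils, and the groups did not overlap. Tfeb, the transcription factor named above, read 7.32, 7.62, 7.31 and 7.11 in WT and 6.96, 7.52, 7.52, 7.35 and 7.42 in KO, a difference of 0.02 (SE 0.17, 95% interval -0.34 to 0.37) with overlapping groups. Its signal was dim, not far above the median of all cluster means (6.69). Cln3, a lysosomal membrane protein lost in juvenile ceroid lipofuscinosis, differed by -0.49 (SE 0.29) and did not pass, and without KO neutrophil 5, the highest KO array at 15.75, it was -0.75 (adjusted p = 0.0418).

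Of the 10 genes with CACGTG before a listed transcript start, internal starts included, 7 rose in KO neutrophils, as did 12 of the 24 that lacked it. With GTCACGTG the counts were 4 of 7 and 15 of 27. Lamp1, Mcoln1, Ctsa and Lgmn rose, and Naglu, Gla and Cln3 did not pass. These counts describe the letters in a window and say nothing of what binds there.

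**Figure D2:**
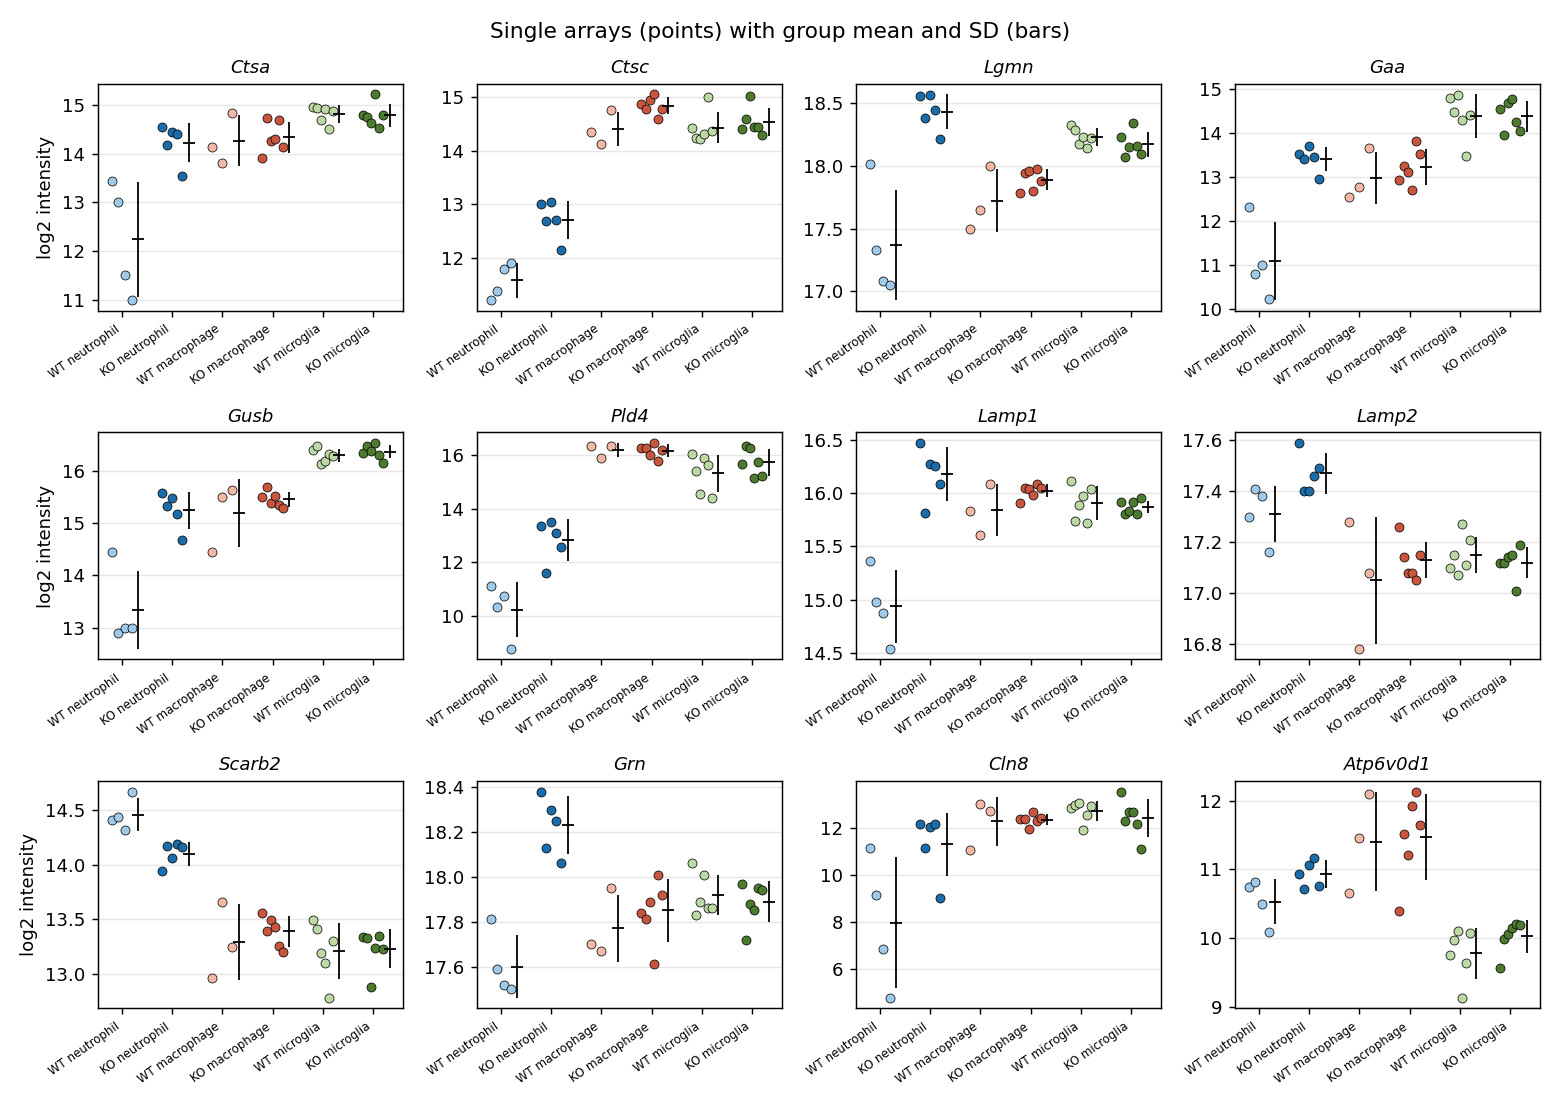
Log2 intensity (y axis) of 12 lysosomal genes on each of the 30 arrays by group (x axis), with the group mean and SD beside the points. WT neutrophils lie below KO neutrophils in Ctsa, Ctsc, Lgmn, Gaa, Gusb, Pld4, Lamp1 and Grn, and above them in Scarb2, while Cln8 spreads from 4.75 to 11.11 within WT neutrophils.

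The WT neutrophil arrays also differed among themselves in their median level over the 42 genes. Single genes could run otherwise, as Ctsc and Atp6v1a read highest in WT neutrophil 4 among the WT neutrophil arrays. Over the 42 genes the median level per array was 12.72, 12.19, 11.59 and 11.55 in WT neutrophils 1 to 4 and 13.56, 13.43, 13.60, 13.42 and 12.69 in KO neutrophils 1 to 5. KO neutrophil 5 thus lay with WT neutrophil 1, and the other 4 KO arrays lay within the range of macrophages (13.36 to 13.78). Microglia ranged from 13.45 to 14.33.

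Genes outside the lysosomal list also differed between the neutrophil arrays. Broadly expressed clusters were defined as those at 11 or above on every macrophage and microglia array and with WT means of those cell types less than 1 apart. Of 1990 such clusters outside the lysosomal list, 38.3% were called higher and 4.02% lower in KO neutrophils, with a median of 0.44. Of the 25 lysosomal genes that met the same definition 18 were higher, with a median of 1.06. Of all 2015 broad clusters, 20, 89, 109 and 204 lay more than 3 log2 units below their level in the other cells in WT neutrophils 1 to 4, against 5, 7, 5, 8 and 24 in KO neutrophils 1 to 5.

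**Figure D3:**
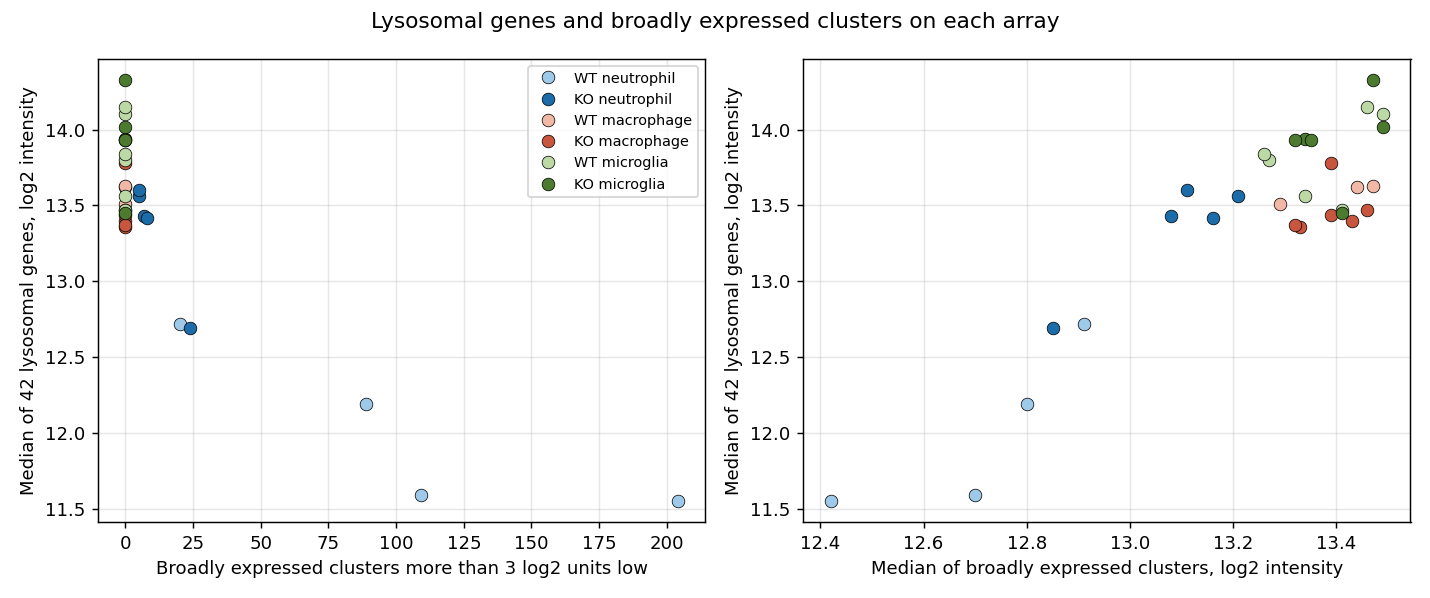
Median log2 intensity of the 42 lysosomal genes on each array (y axis), against the number of broadly expressed clusters more than 3 log2 units low (left x axis) and against the median log2 intensity of broadly expressed clusters (right x axis). WT neutrophils lie lowest, from 11.55 to 12.72, and KO neutrophil 5, at 12.69, lies next to WT neutrophil 1.

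Cell type markers were also compared between the neutrophil groups. Of all clusters 10.7% were called higher and 9.14% lower in KO neutrophils (19.9% in either direction). The mean of the 14 macrophage and monocyte markers was 12.36 to 13.12 in WT and 12.88 to 13.42 in KO neutrophils, and 4 of the 14 were higher in KO, with none lower. The monocyte receptor Ccr2 read 8.59 ± 1.05 (SD, n = 4) in WT and 10.67 ± 1.41 (SD, n = 5) in KO neutrophils, against 15.32 ± 0.55 (SD, n = 3) in WT macrophages. Other genes of that list had lower means in KO, among them Chil3 (15.56 ± 0.37 in WT and 14.04 ± 0.60 in KO), Plac8 (12.58 ± 1.26 and 11.45 ± 1.21) and Ly6c2 (12.28 ± 1.08 and 11.59 ± 0.86), with the same n, and none of these passed. The mean of 15 neutrophil markers was 13.65 to 15.98 in WT and 12.73 to 13.88 in KO, with 4 lower, and the mean of 16 cartilage and connective tissue markers was 9.31 in WT neutrophil 4 against 6.20 to 7.45 on the other 8 neutrophil arrays, with 7 lower in KO. The mean of 13 microglia markers ranged from 9.62 to 10.83 in WT and from 9.66 to 11.18 in KO, with 2 higher and 2 lower, not far from those shares. Of the other marker lists, 2 of 7 lymphocyte markers and 1 of 6 endothelial and mural markers were lower in KO, and none of 5 astrocyte, 5 oligodendrocyte and 6 neuron markers passed. The part of these cells, and of the low broad clusters, in the lysosomal difference was not tested. In sorted bulk samples, fewer cells of a type and less RNA per cell cannot be told apart.

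With the median level of the broad clusters on each array as a covariate, 5 of the 25 genes passed. They were Gaa (1.65, SE 0.42), Gusb (1.11, SE 0.27), Ctsc (1.11, SE 0.28), Lamp1 (0.94, SE 0.19) and Lgmn (0.66, SE 0.18), with limma adjusted p from 0.00845 to 0.0475. The covariate was 12.42 to 12.91 on WT and 12.85 to 13.21 on KO neutrophil arrays. They overlapped in it only through WT neutrophil 1 and KO neutrophil 5, so these adjusted differences lean on extrapolation. Fitted on the 9 neutrophil arrays alone, 14 of the 25 passed, with the same differences and a spread taken from those arrays. The shares of all clusters called in these fits are not given here.

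Other genes of lysosomal biogenesis, from lists written by function, were read in the same comparison, in which 10.7% of all clusters were higher and 9.14% lower. Of 16 genes that sort enzymes to lysosomes, 11 were higher in KO neutrophils and none lower, with a median of 0.96. Gnptab, which makes the mannose 6-phosphate tag, rose by 2.38 (SE 0.28), Vps41, a tether of endosome to lysosome fusion, by 1.57 (SE 0.19), and the mannose 6-phosphate receptor M6pr by 0.97 (SE 0.15). Their groups did not overlap. Of 26 other hydrolases and activators 13 were higher and 1 lower (median 0.71), led by Acp5, the tartrate-resistant acid phosphatase (2.86, SE 0.36), Hpse, the heparanase (1.59, SE 0.23), and Scpep1, a serine carboxypeptidase (2.27, SE 0.41).

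Other membrane proteins and pump subunits were read in the same way. Of 27 other membrane proteins and transporters 10 were higher and 1 lower, with a median of 0.24. The amino acid exporter Slc36a1 rose by 1.84 (SE 0.34) and Laptm4b by 1.36 (SE 0.25), and the sialomucin Cd164 fell by 0.93. Of 14 other pump subunits 3 were higher and 1 lower (median 0.24), counts not far from the shares of all clusters, with Atp6v1c1 at 1.40 (SE 0.30), Tcirg1 at 1.21 (SE 0.34) and Atp6v0a1 at -0.67 (SE 0.18).

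Of 15 relatives of TFEB and genes of nutrient sensing at lysosomes, 4 were higher and none lower (median 0.73). Flcn, a regulator of TFEB and its relative TFE3, rose by 2.03 (SE 0.41), Mitf, a factor of the same family, by 1.36 (SE 0.31) and Lamtor5, part of the Ragulator scaffold, by 0.79 (SE 0.24). Of 9 cathepsin inhibitors 2 were higher and 4 lower, with a median of -0.92. Stfa1, a stefin of neutrophils, fell by 1.91 and Serpinb1a by 1.27, while Serpinb6a rose by 1.57 (SE 0.46). Stefin genes are near copies of each other, so the probes of Stfa1 may read its neighbours.

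In macrophages, none of the 42 genes passed between genotypes, and 2 had an unadjusted p under 0.05. Over all clusters 0.00452% passed, which is 1 cluster. The median difference of the 42 genes was 0.08, from -0.53 for Cln3 to 0.77 for Idua, and the widest 95% interval reached 1.65 to either side. Idua, the iduronidase of glycosaminoglycan breakdown, had the smallest p. It read 9.51, 10.38 and 10.34 in WT and from 10.48 to 11.31, with a median of 10.85, in KO macrophages, which did not overlap, and its difference of 0.77 (SE 0.28) had a limma adjusted p of 0.972. Ctsc came next, with 14.35, 14.13 and 14.76 in WT and 14.60 to 15.06 (median 14.83) in KO, a difference of 0.43 (SE 0.21, adjusted p = 0.998). Groups were separate in 2 of the 42 genes, both higher in KO, against 1.88% of all clusters that way, 1.04% the other way and 2.92% in all.

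In the other lysosomal lists no gene passed in macrophages, and 3 had an unadjusted p under 0.05. Hgsnat, a membrane acetyltransferase of heparan sulfate breakdown, differed by -0.82 (SE 0.35), Mtor, the nutrient-sensing kinase, by -0.81 (SE 0.34), and Lamp5 by 0.37 (SE 0.18), each with a limma adjusted p of 0.998.

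In microglia none of the 42 passed either, none had an unadjusted p under 0.05, and 0% of all clusters passed. The median difference was -0.03, from -0.41 to 0.40, and the widest 95% interval reached 1.35 to either side. In none of the 42 genes were the groups separate, as they were in 0.0679% of all clusters with KO higher and 0.0407% with KO lower (0.109% in all). The smallest p belonged to Npc1, with 8.85 to 10.22 (median 9.66) in WT and 8.99 to 9.42 (median 9.10) in KO microglia, a difference of -0.41 (SE 0.27, limma adjusted p = 1). Pld3 differed by 0.29 (SE 0.21, adjusted p = 1). No gene of the other lysosomal lists passed in microglia. The smallest p in each of those lists belonged to Prcp, a lysosomal carboxypeptidase (0.32, SE 0.22), Tpcn1, a two-pore channel (0.36, SE 0.21), Atp6v0a1 (-0.29, SE 0.15), Gnptab (-0.33, SE 0.24), Rragd, a nutrient-sensing GTPase (0.39, SE 0.26), and Stfa2 (0.74, SE 0.43).

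The change with genotype was tested between cell types. It was larger in neutrophils than in microglia in 21 of the 42 genes, where 4.06% of all clusters were called that way, 1.73% the other way and 5.79% in all. It was larger in neutrophils than in macrophages in 16, against 4.36% that way, 2.51% the other way and 6.87% in all. Neither test called any of the 42 lower, and between macrophages and microglia none passed, as with 0% of all clusters (no unadjusted p under 0.05 among the 42). The comparisons share the neutrophil arrays. All 9 proteases were among the 21, from 0.78 for Ctsb to 2.02 for Ctsa, and so were Cln8 (3.65, SE 1.01), Gaa (2.33, SE 0.42) and Npc1 (2.24, SE 0.41). Against macrophages the largest that passed were Pld4 (2.62, SE 0.58), Gaa (2.08, SE 0.46) and Ctsa (1.92, SE 0.47). No proton pump subunit passed either test.

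These counts moved with single arrays. Without WT macrophage 3 the count against macrophages was 9, and with WT neutrophils 3 and 4 both left out it was 3, while that against microglia was then 7. With the covariate the counts were 1 against microglia and 0 against macrophages.

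Between WT cell types, 32 of the 42 lysosomal genes had their lowest mean in neutrophils. Of the 42 genes, 30 were lower and 4 higher in WT neutrophils than in WT microglia, where 32.3% of all clusters were called lower and 22% higher (54.3% in all). In 24 genes every WT neutrophil array lay below every WT microglia array and in 2 above, against 23.1% and 12.8% of all clusters (35.8% in all). Against WT macrophages 24 were lower and 3 higher, where the shares of all clusters were 22% and 29.6% (51.6% in all). Of broadly expressed clusters outside the list 61.9% were lower than in WT microglia and 58.9% than in WT macrophages, each with a median of -0.80. Of the 25 lysosomal genes that met the same definition 17 and 16 were lower, with medians of -0.86 and -0.90, close to those of the other broad clusters. The definition, by high levels in macrophages and microglia, favours lower calls in neutrophils in both sets.

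**Figure D4:**
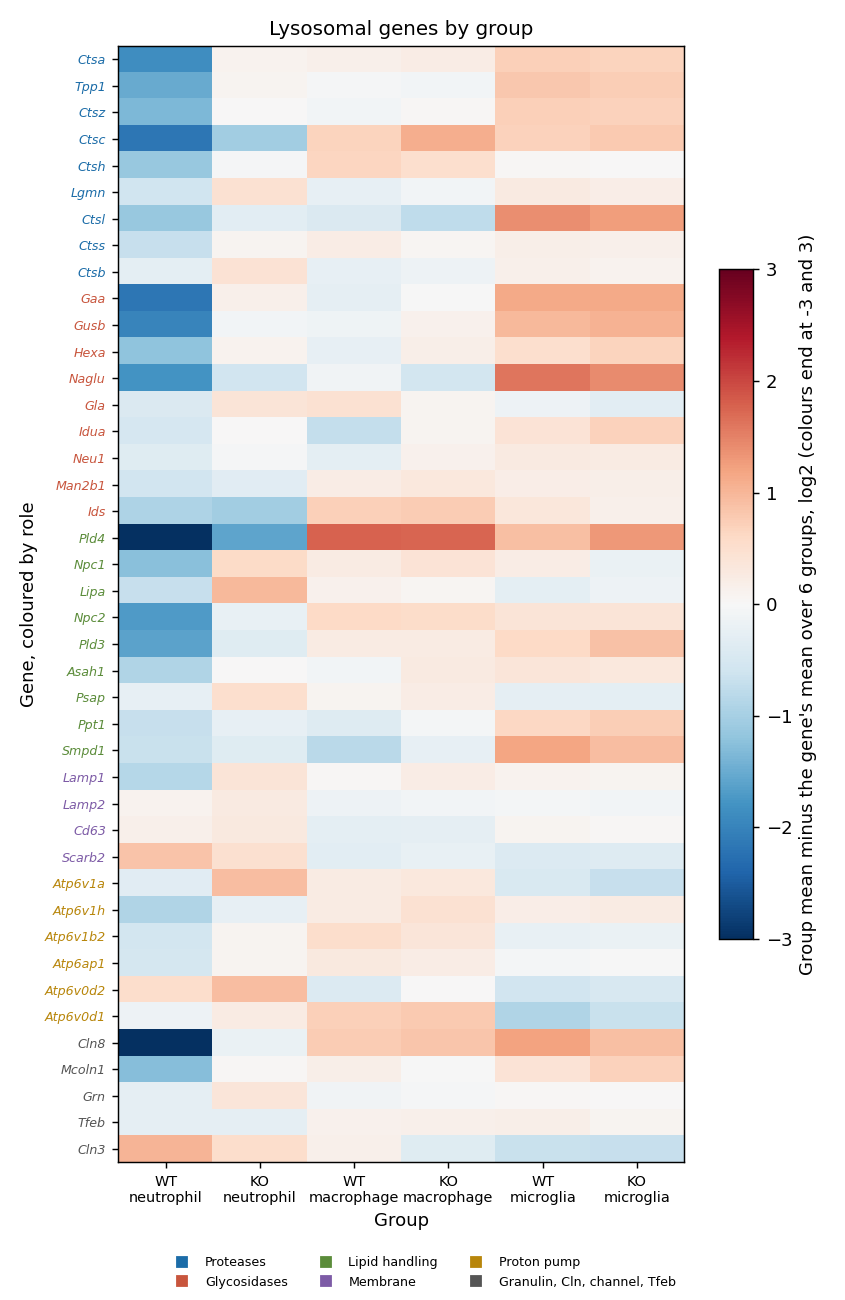
Group mean of each of 42 lysosomal genes (rows, by role) minus that gene's mean over the 6 groups (columns), in log2 units, with the colour scale ending at -3 and 3. WT neutrophils are lowest in most rows. Scarb2, Cln3 and Atp6v0d2, and by smaller margins Lamp2 and Cd63, are higher in both neutrophil groups than in the other 4.

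By role, the genes lower in WT neutrophils than in WT microglia were 9 of 9 proteases, 8 of 9 glycan enzymes, 7 of 9 lipid handling genes, 1 of 4 membrane glycoproteins, 1 of 6 pump subunits and 4 of the 5 others. All 9 proteases were lower in WT neutrophils than in WT microglia, from -0.44 for Ctsb to -2.85 for Ctsc. Ctsc read 14.22 to 15.00 (median 14.33) in WT microglia against 11.21 to 11.90 in WT neutrophils, without overlap, a difference of -2.85 (SE 0.19, limma adjusted p = 2.61e-13), and against WT macrophages it was -2.84 (SE 0.22). Ctsl read 15.13 to 15.57 (median 15.50) in WT microglia, against 13.68, 12.51, 12.92 and 12.49 in WT neutrophils and 13.38, 13.94 and 13.49 in WT macrophages. It was lower by 2.52 in WT neutrophils and by 1.82 in WT macrophages than in WT microglia.

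Pld4 had the largest gap. It read 14.40 to 16.01 (median 15.51) in WT microglia and 16.33, 15.89 and 16.32 in WT macrophages, both far above all 4 WT neutrophil arrays. The differences were -5.06 (SE 0.38, 33.4-fold) and -5.93 (SE 0.45, 61.2-fold), with limma adjusted p of 4.61e-12 and 2.88e-11. Cln8 was lower by 4.74 and 4.30 and Naglu by 3.41 and 1.67, and Naglu did not pass against macrophages. Npc2 was lower by 2.08 and 2.29, Gaa by 3.30 and 1.90, while Gusb stood at -2.96 and -1.85. Lamp1 was lower than in WT microglia by 0.97 and Grn by 0.32. With the level of broadly expressed clusters as a covariate, 11 genes passed against WT microglia in place of 34 and 8 against WT macrophages in place of 27. Cln8 then stood at 1.01 and 1.71, and Naglu at 0.39 against WT microglia, so that these directions turned. The covariate was 12.42 to 12.91 on WT neutrophil arrays and 13.26 to 13.49 on macrophage and microglia arrays, without overlap. Its clusters were also defined by high levels in macrophages and microglia. These adjusted differences therefore extrapolate, and they cannot settle a direction.

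A few genes went the other way. Cln3 read 12.93 to 14.48 (median 13.53) in WT microglia against 15.32, 15.28, 14.70 and 15.65 in WT neutrophils, a difference of 1.69 (SE 0.28), and Scarb2 read 12.78 to 13.49 (median 13.24) against 14.32 to 14.67, a difference of 1.25 (SE 0.14). Both separated the groups, and both were also higher than in WT macrophages, by 0.86 (SE 0.33) and 1.17 (SE 0.17). Cd63 was higher than in WT macrophages by 0.46 (SE 0.14) and differed from WT microglia by 0.09 (SE 0.12). Atp6v0d2 and Atp6v0d1 were higher in WT neutrophils than in WT microglia by 1.10 (SE 0.36) and 0.75 (SE 0.27), with overlapping groups. Atp6v0d2 was the dimmest case, read at 4.67 to 6.48 (median 5.53) in WT microglia and 5.68 to 7.12 in WT neutrophils, around the median of all cluster means (6.69).

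Some genes differed little between cells. Lamp2 was 17.31 ± 0.11 (SD, n = 4) in WT neutrophils, 17.05 ± 0.25 (SD, n = 3) in WT macrophages and 17.15 ± 0.07 (SD, n = 6) in WT microglia, and no pair of these passed. Tfeb was 7.34 ± 0.21 (SD, n = 4), 7.73 ± 0.22 (SD, n = 3) and 7.79 ± 0.21 (SD, n = 6), lower in neutrophils than in microglia by 0.45 (SE 0.17, limma adjusted p = 0.0231). Those Tfeb levels were not far above the median of all cluster means (6.69), and signal relative to background was not analysed here.

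WT macrophages were then set against WT microglia. Macrophages were higher in 4 and lower in 13 of the 42 genes, near the shares over the whole array, where 9.62% of all clusters were called higher and 27.9% lower (37.5% in all). Over all clusters the median of this comparison was -0.25, and once each array was centred on its median the split turned to 10 higher and 4 lower, so the balance of directions depends on the scaling. The shares of all clusters above are those before centring, so the centred split cannot be set against them. Without WT macrophage 1, 9 genes passed, 2 higher and 7 lower. Atp6v0d1 read 10.65, 11.45 and 12.09 in WT macrophages and 9.13 to 10.11 (median 9.86) in WT microglia, without overlap, a difference of 1.62 (SE 0.29, limma adjusted p = 5.96e-05). Smpd1 read 7.62, 8.72 and 8.78 against 9.39 to 10.81 (median 10.54), also without overlap, a difference of -1.99 (SE 0.36). Naglu was lower by 1.74 (SE 0.69), Cln3 was higher by 0.83 (SE 0.30) and Atp6v1b2 by 0.73 (SE 0.27), and these 3 calls were lost without WT macrophage 1.

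KO cells gave the same comparisons on other arrays. KO neutrophils were higher than KO microglia in 11 genes and lower in 17, where the shares of all clusters were 13% and 32% (45% in all), and higher than KO macrophages in 9 and lower in 8, against 15.9% and 15.8% (31.7% in all). Against microglia the split was 15 higher and 9 lower after centring and 10 and 13 after quantile normalization over all arrays. KO macrophages were higher than KO microglia in 6 and lower in 13, against 11.8% and 31.4% (43.3% in all), and after centring higher in 18 and lower in 5. The shares of all clusters named here are those before centring or quantile normalization, so counts after either cannot be set against them.

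Genes that passed in both genotypes were compared with those that passed in 1. Against microglia, 17 genes were lower in neutrophils of both genotypes (24.5% of all clusters) and 4 were higher in both (11%), namely Scarb2, Cln3, Atp6v0d1 and Atp6v0d2. A further 10 were called lower in WT alone (7.67% of all clusters), among them Lamp1, Ctsa, Ctsh, Ctss, Lgmn, Npc2 and Cln8. Cln8 and Npc2 were still at -1.09 and -0.61 in KO, where they did not pass. In 3 genes the direction turned, as in 0.14% of all clusters. Npc1 was lower in WT neutrophils by 1.48 and higher in KO neutrophils by 0.76, Ctsb was -0.44 and 0.34, and Grn -0.32 and 0.34, and Grn was -0.00 in KO after quantile normalization over all arrays. Lipa, Psap, Atp6v1a and Lamp2 were called higher than in microglia in KO neutrophils alone (1.9%), with Atp6v1a at 1.61 (SE 0.33) and Lipa at 1.12 (SE 0.29).

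Pld4 kept the largest gap in KO cells. It read 15.12 to 16.33 (median 15.69) in KO microglia, 15.75 to 16.42 (median 16.22) in KO macrophages and 11.61 to 13.51 in KO neutrophils, which overlapped with neither. KO neutrophils were lower by 2.88 (SE 0.36) and 3.32 (SE 0.36). Ctsc was lower by 1.82 and 2.13, Naglu by 1.98 against microglia and Ids, the iduronate sulfatase, by 1.81 against macrophages. Atp6v0d2, Lipa and Cln3 were the 3 genes most raised over KO macrophages, by 0.92, 0.91 and 0.90.

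**Figure D5:**
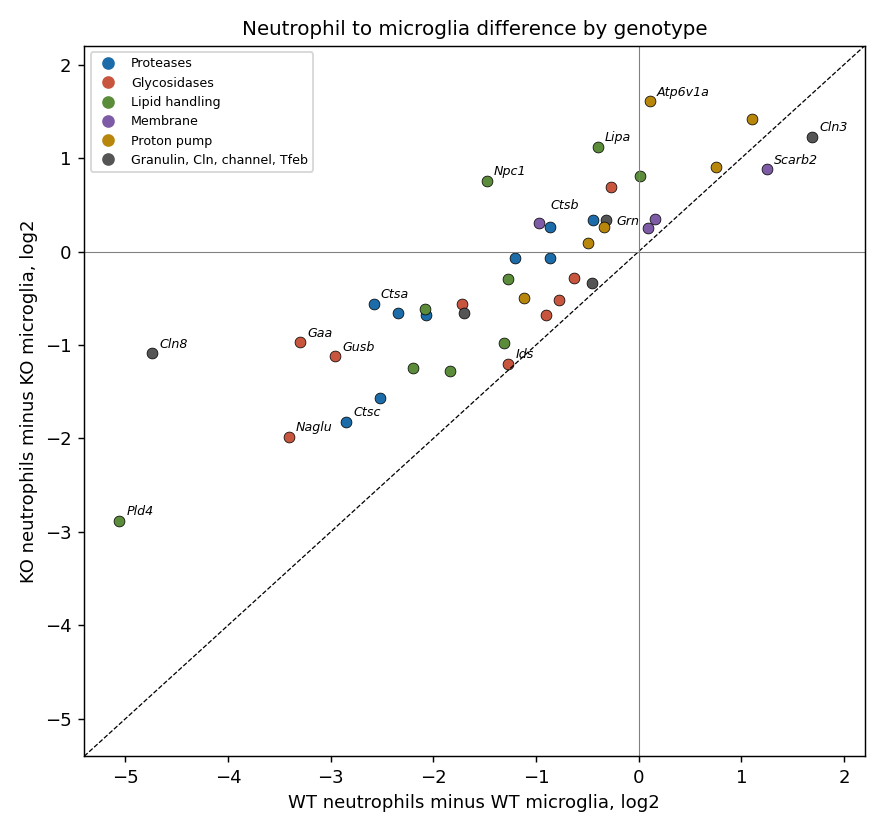
Difference between neutrophils and microglia (log2) in KO cells (y axis) against the same difference in WT cells (x axis) for 42 lysosomal genes coloured by role, with the line of equal values dashed. Most points lie above the line, with Pld4 at -5.06 in WT and -2.88 in KO, and Scarb2 and Cln3 lie to the right of 0 in WT and above 0 in KO.

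Against macrophages, 8 genes were lower in neutrophils of both genotypes (11.3% of all clusters) and 3 higher in both (13.4%), namely Cd63, Scarb2 and Cln3. In 16 genes neutrophils were called lower in WT alone (10.6%). In 6 they were called higher in KO alone (2.45%), namely Lamp2, Ctsb, Lgmn, Lipa, Grn and Atp6v0d2. Atp6v0d2 differed by 0.92 in both genotypes and Lamp2 by 0.27 in WT and 0.34 in KO. A call in 1 genotype alone therefore need not mean that the difference itself changed. Between macrophages and microglia, 11 genes were lower in macrophages of both genotypes (22.6%) and 3 higher (8.16%). The 11 were Ctsl, Ctsz, Tpp1, Gaa, Gusb, Hexa, Idua, Naglu, Ppt1, Smpd1 and Cd63, and the 3 were Ctsh, Atp6v0d1 and Atp6v1b2. After centring, Cd63 was at 0.03 in WT and 0.07 in KO. Ctsl showed this gap in KO with 13.03 to 13.39 (median 13.35) in KO macrophages and 14.83 to 15.51 (median 15.37) in KO microglia, a difference of -2.02 (SE 0.18) that was -1.82 (SE 0.21) in WT.

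The other lysosomal lists were read in WT cells beside the same shares of all clusters (32.3% lower and 22% higher in neutrophils than in microglia). Against microglia, 17 of 26 other hydrolases were lower and 5 higher, with the arylsulfatase Arsb at -4.75 (SE 0.33), Prcp at -2.88 (SE 0.24) and Hpse at 2.48 (SE 0.22). Of 16 sorting genes 13 were lower and none higher, with Vps41 at -2.59 (SE 0.18). Of 27 other membrane proteins 18 were lower and 5 higher, with a median of -1.03 and Laptm4b at -3.32 (SE 0.24). Of 14 other pump subunits 5 were lower and 3 higher, near the shares of all clusters, with a median of -0.08 and Atp6v0a2 at -2.39 (SE 0.34). Of the 15 TFEB relatives and nutrient sensors 7 were lower and 2 higher, with Rptor, part of the mTOR complex that acts on TFEB, at -4.11 (SE 0.32) and the Ragulator subunit Lamtor4 at 1.98 (SE 0.19).

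Among cathepsin inhibitors more were higher than lower in WT neutrophils. Of 9, 5 were higher and 3 lower than in WT microglia, where 22% of all clusters were higher and 32.3% lower (54.3% in all). Stfa1, Stfa2l1 and Stfa2 stood at 7.42 (SE 0.30), 9.08 (SE 0.40) and 7.90 (SE 0.48), though probes of such near copies may read each other's transcripts. Against WT macrophages 4 were higher and none lower, where the shares of all clusters were 29.6% and 22% (51.6% in all). Beside the same shares against WT macrophages, 15 of 26 other hydrolases were lower and 1 higher, led by Hpse (-4.00, SE 0.26) and Acp5 (-5.34, SE 0.41). Of 16 sorting genes 10 were lower and none higher. Between WT macrophages and WT microglia the smallest p in these lists included those of Acp5 (7.79, SE 0.38) and Hpse (6.48, SE 0.24), both higher in macrophages, and of Cst7, an inhibitor of cathepsins made by activated microglia, lower by 4.43.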

How the data were processed

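Biotin-labelled RNA of the sorted cells was hybridised to Clariom HT microarrays (Affymetrix). The deposited intensity values were made with RMA, per the submitters' processing notes, which corrects background, normalizes arrays together and summarises probes; the software version and which arrays were normalized together are not given in the sources used here. The table held linear intensities from 5.62 to 438297 for 22103 clusters on 30 arrays. Their log2 was taken with no pseudocount and no filter. Symbols came from the platform annotation, which gave 1 symbol for 19508 clusters, and all 42 symbols analysed were found by gene number in the RefSeq table of GRCm38.p6. The brightest cluster of a gene was used. No scan date or slide was given, so no batch could be examined.

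Group means were estimated from all 30 arrays at once, for every cluster, with limma 3.58.1 in R 4.3.3 (24 residual degrees of freedom), with Benjamini-Hochberg adjustment over all clusters within each of 12 comparisons. Every p and adjusted p is from limma. The fit was tested on data simulated with the same group sizes, with independent noise of 1 spread per cluster in every group. Changes of 1 log2 unit were recovered in 48% of cases in neutrophils, 46% in macrophages and 72% in microglia. Those of 0.5 were recovered in 6%, 8% and 10%. False calls were 3.25%, 7.32% and 2.86% of all calls. A gene that did not pass may therefore still differ by such amounts. The members and all lists (6 of other lysosomal genes, with 107 of 113 genes measured, and 9 of cell markers, with 87 of 91) were chosen with earlier results of these data known. All members were counted by role, and the 3 with the largest passing change in each direction were described by array, or the 2 of smallest p in a comparison that called no member, together with a fixed set of well-known members; up to 3 genes with the smallest p were named from each list.

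Alternatives changed the scaling (centring arrays on their medians, or quantile normalization, either of each cell type apart or of all arrays), the model (a robust variance trend, weights for arrays, only the groups compared, a covariate for the level of broadly expressed clusters, a replicate block), the clusters kept (without the dimmest 25%, or the brightest of each gene) or the arrays (without each one). Leaving out WT neutrophils 3 and 4, and KO microglia 2 and 4, was chosen after seeing the data. Replicate numbers were not used to pair samples in the main fit, and the labels do not say whether same-numbered samples share an animal. The correlation of deviations between same-numbered arrays ranged from -0.2 to 0.26 over 64 pairs. Many of these pairs set WT against KO arrays, so the values cannot settle whether samples were paired. Matplotlib 3.10.9 under Python 3.11.15 drew the figures.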

Additional observations from a re-analysis of the deposited data

Results flagged for a closer look

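Single arrays stood apart from the rest of their group in 12 of 210 gene and group combinations of 4 to 6 arrays. They were found by the gap to the nearest array relative to the group's range. Chance alone marks about 5% of groups, and the count was near that share. In neutrophils, Gusb was high in WT neutrophil 1 (14.45, nearest array 13). WT neutrophil 4 was low in Asah1 (13.26, nearest 14.85) and Atp6v0d2 (5.68, nearest 6.96), and KO neutrophil 5 was low in Naglu (8.33, nearest 12.16) and Neu1 (8.49, nearest 9.16). In macrophages, Ids was high in KO macrophage 4 (12.01, nearest 11.49). In microglia, WT microglia 5 was high in Ctsc (15.00, nearest 14.43) and low in Tpp1 (14.49, nearest 14.68), and KO microglia 6 was low in Neu1 (8.79, nearest 9.39) and high in Cln3 (14.16, nearest 13.50). Scarb2 was low in KO microglia 3 (12.88, nearest 13.23) and Atp6v0d1 in KO microglia 1 (9.57, nearest 9.99).

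The change with loss of TREM1 differed between cell types in 23 of the 42 genes by limma's test of the difference, always with the larger value in neutrophils. The log2 change in neutrophils minus that in microglia was Lamp1 1.28, Ctsa 2.02, Ctsb 0.78, Ctsc 1.03, Ctsh 1.12, Ctsl 0.95, Ctss 0.79, Ctsz 1.39, Lgmn 1.11, Gaa 2.33, Gusb 1.84, Hexa 1.16, Npc1 2.24, Npc2 1.48, Lipa 1.52, Psap 0.80, Grn 0.66, Tpp1 1.67, Cln8 3.65, Asah1 0.98 and Pld4 2.18. The log2 change in neutrophils minus that in macrophages was Lamp1 1.06, Ctsa 1.92, Ctsh 1.24, Ctsl 1.15, Ctss 0.92, Lgmn 0.89, Gaa 2.08, Gusb 1.65, Npc1 1.67, Npc2 1.51, Lipa 1.73, Grn 0.55, Tpp1 1.65, Mcoln1 1.49, Pld3 1.25 and Pld4 2.62. The neutrophil arrays are shared by both sets of values, and the part of the low broadly expressed clusters on the WT neutrophil arrays in them was not tested gene by gene beyond the covariate described above.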

How the results depend on the processing

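Counts are of the 42 genes, and shares of all clusters under the alternative settings are not given here. With the level of broadly expressed clusters as a covariate, the count for KO against WT neutrophils went from 25 to 5, for WT neutrophils against WT microglia from 34 to 11 and against WT macrophages from 27 to 8, and for the difference in change from 21 to 1 (against microglia) and 16 to 0 (against macrophages). Its values were 12.42 to 12.91 on WT neutrophil arrays, 12.85 to 13.21 on KO neutrophil arrays and 13.26 to 13.49 on the other arrays. It included the 25 lysosomal genes that met the definition of broad clusters. Since neutrophils and other cells did not overlap in it, adjusted differences between them extrapolate and cannot settle a direction. WT and KO neutrophils overlapped in it only through WT neutrophil 1 and KO neutrophil 5. A fit on the compared groups alone gave 14 for KO against WT neutrophils and 8 for the difference against macrophages. Quantile normalization over all arrays gave 11 in place of 17 for KO neutrophils against KO macrophages. With WT neutrophils 3 and 4 both left out, the counts were 17 for KO against WT neutrophils and 7 and 3 for the differences against microglia and macrophages. Leaving out 1 array at a time gave 23 to 30 for KO against WT neutrophils, 9 to 16 for WT macrophages against WT microglia, 14 to 25 for the difference against microglia and 9 to 24 for that against macrophages. Of the 25 genes called in KO neutrophils, 23 were called in each of these 9 fits. The replicate block changed no count by more than 1.5 times, and gave 26 for KO against WT neutrophils by adding Atp6ap1 (0.69, limma adjusted p = 0.0489). The counts of 0 in macrophages and microglia stayed 0 in every setting run.

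Some single values changed sign, and those with the covariate rest on the extrapolation between neutrophils and other cells named above. With the covariate, in WT neutrophils against WT microglia, they became Ctsb 0.15, Ctss 0.07, Idua 0.35, Naglu 0.39, Neu1 0.77, Npc1 0.08, Npc2 0.14, Ppt1 0.42 and Cln8 1.01. In WT neutrophils against WT macrophages they became Ctsa 0.21, Ctsl 0.34, Ctss 0.06, Ctsz 0.71, Hexa 0.53, Npc1 0.13, Npc2 0.03, Cln3 -0.65, Cln8 1.71, Asah1 0.32, Mcoln1 0.30, Atp6v0d1 0.47, Atp6v1b2 0.58 and Atp6ap1 0.19. In KO neutrophils they became Ctsz 0.21, Hexa 0.11 and Mcoln1 0.13 against microglia and Npc2 0.23 against macrophages. After quantile normalization over all arrays, Neu1 became 0.07 in WT neutrophils against WT microglia, and Grn -0.00 and -0.14 in KO neutrophils against KO microglia and KO macrophages. After centring, macrophages against microglia became Cd63 0.03 and Ctsb 0.01 in WT and Cd63 0.07 in KO, and WT neutrophils were higher than WT macrophages in 1 gene and lower in 31. The cause of these changes was not tested.

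Limits are the number of arrays, 3 in WT macrophages, the unknown source of each replicate, and the spread of WT neutrophils, whose median SD over the 42 genes was 0.56 against 0.23 to 0.36 in the other groups. Signal relative to background was not analysed here.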
